A study of Bos taurus with 2 samples.

Results

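The muzzle of cattle is kept moist by nasolabial glands, which lie under the skin and secrete a watery, serous fluid onto its surface. Serous cells release enzymes, carrier proteins and antimicrobial proteins, among them lactoferrin, lysozyme and lactoperoxidase, and they carry antibody from the tissue into the fluid by way of the polymeric immunoglobulin receptor. Expression of 10 genes for such proteins was compared between 1 light-muzzle and 1 dark-muzzle HanWoo cow, a native Korean breed. The genes were PIP, MSMB, PIGR, CA6, LYZ, LPO, BPIFA1, LTF, CRISP2 and DPP4. This list was drawn up with earlier results of these data known, so counts over it are description only and no independent test. All 10 genes were found by name among the 9647 genes with a RefSeq symbol on the array. They were read by 21 probes, between 1 and 5 per gene. PIGR and DPP4 are membrane proteins of which a part can be shed into the secretion, and CRISP2 is best known from the testis, so that the list is not one of simple secretory products alone.

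Both cows were females, 30 months old, of the same breed and raised under the same conditions, and the study's methods call each a representative of its color. The labels call the tissue nose and give its color as Yellow for the light-muzzle cow and Black for the dark-muzzle cow. RNA came from the front part of the muzzle as a whole, so each value is an average over skin, gland, muscle and other cells. Each RNA was labelled with Cy3 and hybridised to 1 Agilent bovine array, on which a spot's processed signal is its brightness once the scanner software has taken off the background. With 1 cow per group there was no replicate and no test was made, and every difference below is one between 2 animals.

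Signals were well above background at 78.8% of the noncontrol spots of the light-muzzle array and at 81.9% on the dark-muzzle array, without any saturation. Levels are given as log2 of the processed signal minus the 75th percentile of the same array. Each log2 ratio runs from light to dark, being negative where the dark-muzzle animal had the lower level, and its error (±) combines the errors that the scanner software gives for the pair of spots. This error covers the array measurement only and not the difference between animals. The arrays gave a further measure of technical spread. Spots of the same probe varied in log2 ratio with a median SD of 0.049 over 36 probes spotted at least 4 times, and different probes of the same transcript with a median SD of 0.18 over 7661 transcripts. Ratios were centred near 0, with a median of 0.065 over the 8914 genes that had a symbol and a ratio.

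Expression of 7 of the 10 genes was lower in the dark-muzzle animal by at least 2-fold, namely MSMB, PIP, LTF, DPP4, CRISP2, PIGR and CA6. Among all genes with a symbol, 6.47% were at least 2-fold lower. Only BPIFA1 of the 10 was at least 2-fold higher, against 9.86% of all genes, while LYZ and LPO differed by less than 2-fold, both upward. Counted by probe, 17 of 21 were at least 2-fold lower and 1 was at least 2-fold higher, against 7.17% and 9.76% of all 36631 probes with a ratio. The median log2 ratio of the 10 genes was -3.60, and -2.68 with normexp, another background correction. The value of -3.60 is set by PIGR and by CRISP2, whose ratio is a bound and not a measured value. With probes measured in both cows only, which leaves out CRISP2, the median was -3.29. The processed signals of all 21 probes summed to 655481 in the light-muzzle animal and 52129.5 in the dark-muzzle animal, which is 7.95% of the former. In a piece of whole tissue, fewer gland cells and less RNA per gland cell cannot be told apart.

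**Figure D1:**
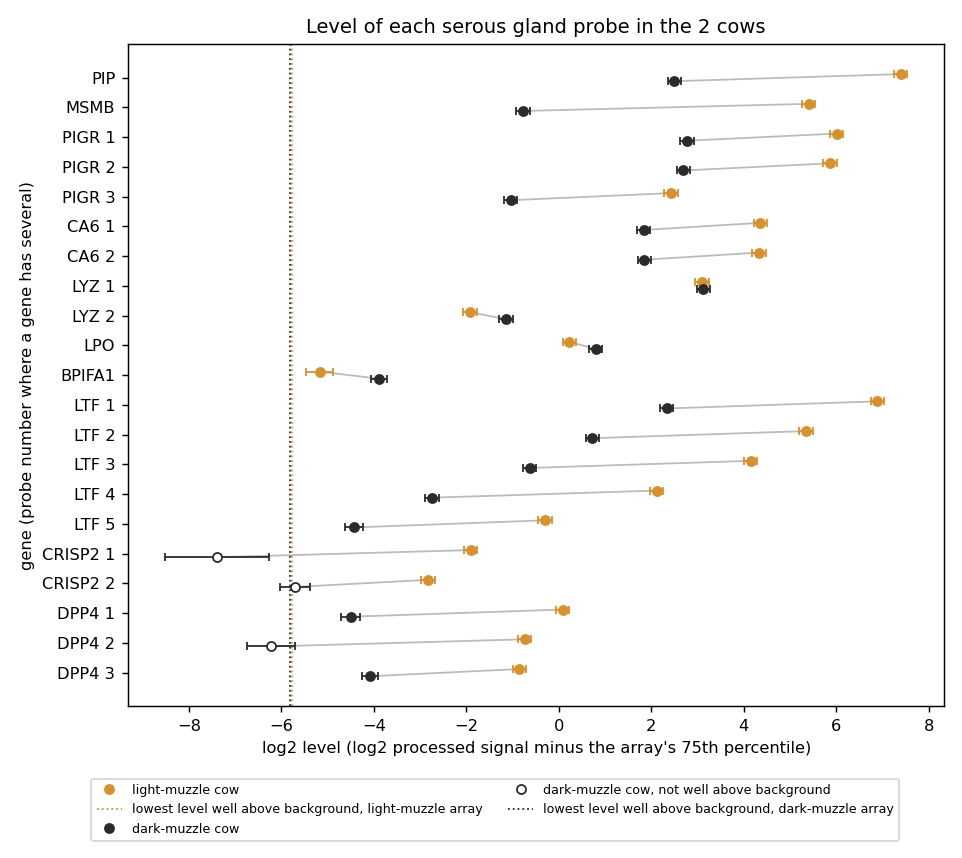
Log2 level (x axis, log2 processed signal minus the array's 75th percentile) of each of the 21 probes (y axis) in the light-muzzle animal (orange) and the dark-muzzle animal (black), with the scanner software's error as bars; open circles were not well above background, and the dotted lines mark the lowest level that was, -5.78 and -5.81. The dark-muzzle point lies to the left of the light-muzzle point for every probe except those of LYZ, LPO and BPIFA1.

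PIP and MSMB are small proteins abundant in serous and seminal secretions. PIP (prolactin-induced protein) binds immunoglobulin and bacterial surfaces, and MSMB encodes beta-microseminoprotein. The PIP probe had a processed signal of 192082 ± 19208 in the light-muzzle animal and 6422 ± 642 in the dark-muzzle animal. These are log2 levels of 7.39 and 2.50, and the log2 ratio was -4.89 ± 0.20, or 29.7-fold lower expression. MSMB differed most of the 10 genes. Its signal was 48442 ± 4844 in the light-muzzle animal and 665 ± 66.8 in the dark-muzzle animal, a log2 ratio of -6.18 ± 0.20 and a 72.4-fold difference. Only 1 of the 8914 genes had a lower ratio than MSMB, and 3 had a lower ratio than PIP. Each of these genes was read by a single probe, so the spread between probes is not known for them.

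CRISP2 encodes a cysteine-rich secretory protein. In the light-muzzle animal both CRISP2 probes cleared the background, with processed signals of 305 ± 30.9 and 161 ± 16.7. In the dark-muzzle animal they read 6.79 and 21.7 and were not well above background, so that only a bound can be given, set by the lowest signal that was well above it (20.3) or by the probe's own signal where that was higher. By these bounds the gene was lower in the dark-muzzle animal by at least 14.9-fold for the first probe and at least 7.35-fold for the second. These are -3.90 and -2.88 as log2 ratios, and with normexp the bound of the gene was -2.01. Such bounds are approximate, because a probe can read above 20.3 without being well above background, as the second probe did.

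LTF encodes lactoferrin, an iron-binding protein that withholds iron from bacteria in secretions and in neutrophil granules. It had 5 probes, all measured in both cows. In the light-muzzle animal they had signals of 135206, 46533, 20281, 4948 and 932. In the dark-muzzle animal the same probes read 5727, 1877, 735, 169 and 52.6. Every probe was lower in the dark-muzzle animal, and the log2 ratios were -4.55, -4.62, -4.78, -4.86 and -4.14. The mean was -4.59 ± 0.28 (SD between 5 probes), a 24.1-fold difference.

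LYZ encodes lysozyme, which cleaves the cell wall of bacteria, and it did not share this difference. One of its probes had signals of 9767 ± 977 in the light-muzzle animal and 9927 ± 993 in the dark-muzzle animal, a log2 ratio of 0.032 ± 0.20. The other probe read 302 ± 30.5 and 515 ± 51.6, a log2 ratio of 0.78 ± 0.21. The first ratio is within its error of 0 and the second is not, although both probes carry the same accession. Their mean was 0.40 with an SD of 0.53, above the median SD of 0.18 between probes of a transcript. Cattle have several lysozyme genes of closely related sequence, and which of them each probe binds was not tested. For LYZ2 the log2 ratio was -0.052, from the only 1 of its 2 probes that was well above background.

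LPO encodes lactoperoxidase, which uses hydrogen peroxide to oxidise thiocyanate into an antibacterial product. Its probe read 1337 ± 134 in the light-muzzle animal and 1976 ± 198 in the dark-muzzle animal. The log2 ratio of 0.57 ± 0.20 is above its technical error and below 2-fold. BPIFA1 encodes a secreted protein of the BPI fold family that coats the airway surface. Its probe read 31.7 ± 6.39 in the light-muzzle animal, close to the lowest signal well above background (20.8), and 76.8 ± 9.45 in the dark-muzzle animal. The log2 ratio was 1.29 ± 0.34, a 2.44-fold difference. With normexp it was 0.55, below 2-fold.

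PIGR encodes the polymeric immunoglobulin receptor, which carries polymeric IgA and IgM across gland epithelium. Its 3 probes read 73507, 66582 and 6157 in the light-muzzle animal and 7781, 7343 and 552 in the dark-muzzle animal. All were lower in the dark-muzzle animal, with log2 ratios of -3.23, -3.17 and -3.47. The mean was -3.29 ± 0.16 (SD between 3 probes), a 9.79-fold difference.

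CA6 encodes the carbonic anhydrase that is secreted into saliva, where it helps to set pH. Its 2 probes read 23453 and 22926 in the light-muzzle animal and 4050 and 4100 in the dark-muzzle animal. The log2 ratios were -2.53 and -2.47, which differ by less than their errors of 0.20, and the mean was a 5.66-fold difference. CA6 had the smallest difference of the 7 lower genes.

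DPP4 encodes dipeptidyl peptidase 4, also known as CD26, a surface enzyme that trims peptides at their amino end and is found on epithelium and on T cells. Its 3 probes read 1213 ± 121, 684 ± 68.6 and 632 ± 63.3 in the light-muzzle animal. In the dark-muzzle animal they read 50.2 ± 7.13, 15.3 ± 5.50 and 67.3 ± 7.89. The first and the third probe were measured in both cows, with log2 ratios of -4.59 ± 0.25 and -3.22 ± 0.22. They differed by more than their errors, with an SD of 0.96 about a mean of -3.90. The second probe was not well above background in the dark-muzzle animal and was at least 33.5-fold lower there. All 3 probes were thus lower by more than 9-fold, but the size of the difference depended on the probe. With normexp background correction the log2 ratio of DPP4 was -2.87.

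In the order of all 8914 genes from the lowest ratio, MSMB took rank 2, PIP rank 4, LTF rank 7, DPP4 rank 16, CRISP2 rank 17, PIGR rank 39 and CA6 rank 92. From the highest ratio, BPIFA1 took rank 591, LPO rank 1806 and LYZ rank 2483. PIP and LTF, next to each other among the 10, differed in their ratios by less than the sum of their errors, and CRISP2 has no firm place because its ratio is a bound. The gaps from MSMB to PIP and from PIGR to CA6 were larger than the errors of those ratios.

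**Figure D2:**
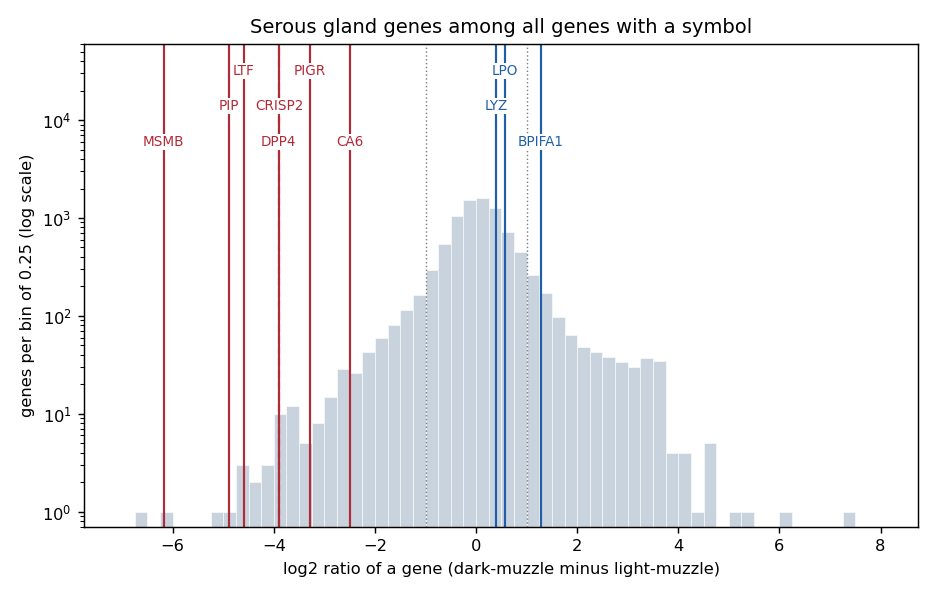
Number of genes per bin of 0.25 (y axis, log scale) against the log2 ratio of the gene (x axis, dark-muzzle minus light-muzzle) for all 8914 genes with a symbol and a ratio, with the 10 serous gland genes as labelled lines (red lower, blue higher, dashed where the value is a bound) and dotted lines at 2-fold. MSMB at -6.18 and PIP at -4.89 lie in the far left tail, whereas LYZ, LPO and BPIFA1 lie in the body of the distribution or on its right shoulder.

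The 21 spots were spread over the array, from row 41 to row 479, none was marked as an outlier and none was saturated. Other spots within 2 rows and 2 columns of them, 351 in number, had a median log2 ratio of -0.062.

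Families of the 10 genes did not move as blocks. Among BPI fold genes, BPIFB1, a further secreted airway and gland protein, had a log2 ratio of -3.19 from 1 probe and was at least 14.8-fold lower by the other. BPIFA2A and BPIFA2B, the bovine salivary proteins BSP30, had ratios of 0.16 and 0.033, and BPIFA2C, a further gene of that group, had one of -1.03 from 1 probe. The probes of BPIFA2B disagreed. The mean of 0.033 came from 3 probes measured in both cows, whereas another probe was lower in the dark-muzzle animal by at least 3.61-fold and another higher by at least 1.53-fold. LBP, which binds bacterial lipopolysaccharide, had a ratio of -2.99 from the only 1 of its 5 probes that was well above background. Of the CAP domain family, to which CRISP2 belongs, CRISP3 (-2.47) and PI16 (-3.00) were lower as well, and the other 4 genes with a ratio lay between -0.98 and 0.26. Of the 6 lysozyme relatives of LYZ with a ratio, only SPACA3, a sperm protein, reached 2-fold (-2.10, from 1 probe), and 2 of the others are known only by a bound.

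Other carbonic anhydrases went both ways. CA3 (-1.32), the muscle form, and CA4 (-1.27), a membrane-bound form, were lower in the dark-muzzle animal, CA2 (1.29), a cytosolic form, was higher, and CA10 was lower by at least 2-fold, as a bound. TF, the transferrin of blood and the relative of LTF, had a ratio of -0.38 over 3 probes. Those probes were near background, with signals between 26.3 and 72.9, and its other probes were not well above background in either cow. FAP, a peptidase of fibroblasts and the nearest relative of DPP4 on the list, had a ratio of -1.04, and ADA (0.88), the enzyme that binds to DPP4, was higher by less than 2-fold. MPO, the peroxidase of neutrophils, did not clear the background in the light-muzzle animal and was higher in the dark-muzzle animal by at least 3.03-fold, and DUOXA1, which serves a source of the peroxide that LPO uses, had a ratio of 0.36.

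Other products of glands were examined from a list of 45, of which 20 had a ratio. Of these, 10 (50%) were lower in the dark-muzzle animal by at least 2-fold, 2 (10%) were at least 2-fold higher and the median was -1.48. Among all genes with a symbol the shares were 6.47% and 9.86%. Of the 10 lower genes, STATH and ALB are known only by a bound, and the 2 probes of KLK1 disagreed (-4.48 and -0.22). The lowest were CSN3 (-4.01), the milk protein kappa-casein, WFDC2 (-3.61), a protease inhibitor-like secreted protein, TFF3 (-3.61), a trefoil peptide of mucous surfaces, and BPIFB1. The higher ones were CST6 (1.43), a cystatin of skin, and AMY2B (1.13), an amylase. SLPI and LALBA were not well above background in either cow.

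Genes that mark gland epithelium were lower along with these products. All 11 that were analysed were well above background in both cows, 10 of them were lower in the dark-muzzle animal by at least 2-fold and the median was -2.16. The simple-epithelium keratin KRT7 had a ratio of -3.63 and the claudin CLDN10 one of -3.55. SPDEF, a transcription factor of secretory cells, had a mean ratio of -3.12 over 4 probes. KRT8 had a mean of -2.39, but its 4 probes ranged from -3.25 to -0.18. KRT19, at -0.62, was the exception. FOXA1, SOX10, AQP5, KRT18, SOX9 and BHLHA15 were not analysed here. Mucous cell genes lay on the same side. The 5 with a ratio were all lower by at least 2-fold, with a median of -2.90, and 3 of them are also on the gland lists. Among them AGR2, a folding factor for mucins, had a ratio of -2.90, and GCNT3, a mucin glycosyltransferase, one of -2.63. MUC5B, MUC5AC and MUC19 were not analysed here. These lists and the 10 genes were lower in the same cow, and the part of gland amount in the result was not tested.

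**Figure D3:**
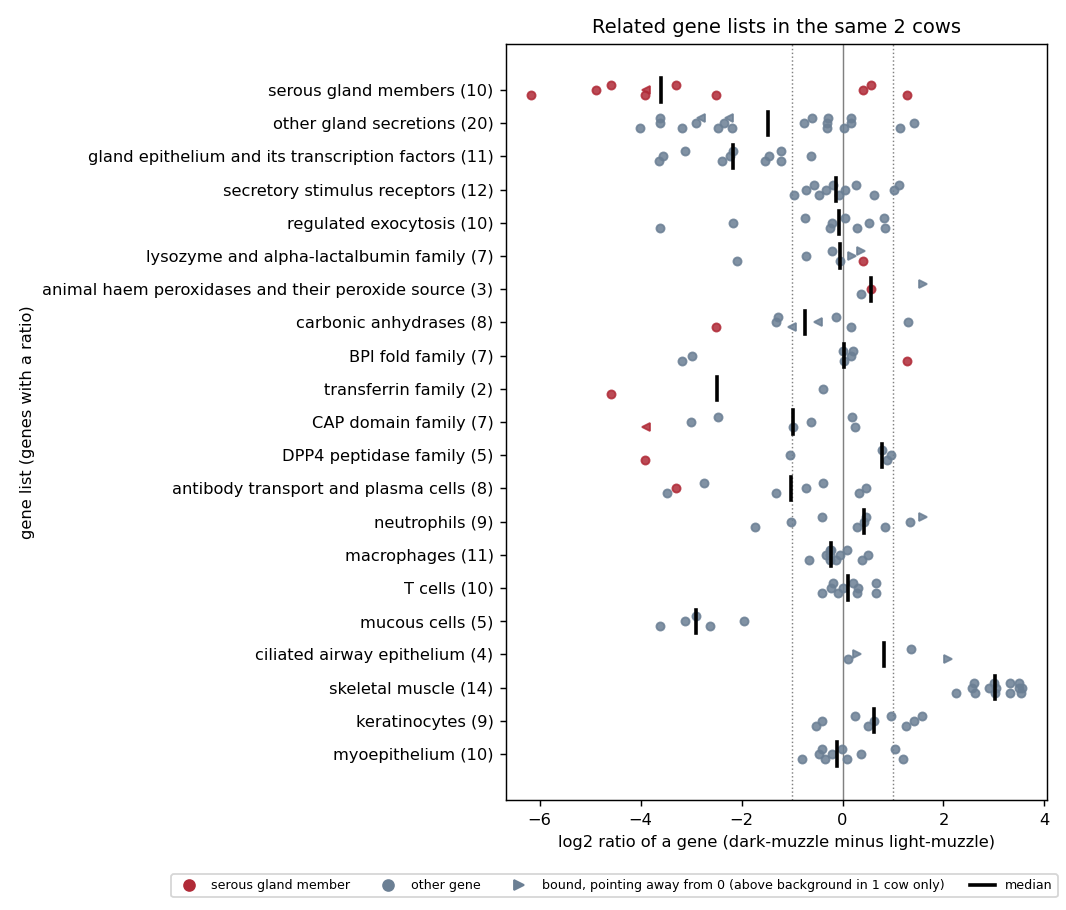
Log2 ratio (x axis, dark-muzzle minus light-muzzle) of every gene with a ratio on each list (y axis, number of genes in parentheses), with members in red, other genes in grey-blue, arrowheads for bounds, black bars for list medians and dotted lines at 2-fold. The medians of the gland epithelium list (-2.16) and the mucous cell list (-2.90) lie on the same side as that of the serous gland genes (-3.60), and the muscle list lies at 3.03 on the opposite side.

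PIGR takes up antibody that plasma cells make with a joining chain. JCHAIN, which encodes that chain, was lower in the dark-muzzle animal. Its 2 probes read 45167 and 42795 in the light-muzzle animal and 8751 and 4814 in the dark-muzzle animal, with log2 ratios of -2.36 and -3.14. POU2AF1, a cofactor of B lineage transcription (-3.48), and MZB1, a chaperone for antibody (-1.31), were lower too. The other 4 of the 7 genes on this list apart from PIGR lay within 2-fold, with ratios of -0.73 for DERL3, -0.39 for CD79A, 0.33 for SDC1 and 0.46 for CD38. These values rest on probes measured in both cows, and a second CD79A probe, above background only in the dark-muzzle animal, was higher there by at least 2.69-fold. The CD38 value came from 1 of its 3 probes, which read 30.9 and 42.2, close to the lowest signals well above background (20.8 and 20.3). The summed signal of the list, PIGR included, was 245412 in the light-muzzle animal and 39717 in the dark-muzzle animal. Most of the light-muzzle sum came from the PIGR probes, so that its fall is not separate from that of PIGR.

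Other cells can also express some of the 10 genes. Macrophages make lysozyme, and the 11 macrophage genes with a ratio were all within 2-fold, with a median of -0.24 and summed signals of 8954 in the light-muzzle animal and 8787 in the dark-muzzle animal. T cells carry DPP4, and the 10 T cell genes with a ratio were all within 2-fold, with a median of 0.11 and summed signals of 38359 and 30655 in the light-muzzle and the dark-muzzle animal. Most of both sums came from 1 CD4 probe, which read 27122 and 20447. The other CD4 probes with a ratio were bounds that disagreed, at least 2.44-fold lower for 1 and at least 1.55-fold higher for 1. Neutrophils store lactoferrin, and of 9 neutrophil genes with a ratio 2 were at least 2-fold lower and 2 at least 2-fold higher, with a median of 0.43. By the same measure, 6.47% of all genes with a symbol were lower and 9.86% higher. PGLYRP1 (-1.74) was the lowest of the 9 and MPO (at least 3.03-fold) the highest, while CXCR1 and CAMP were not well above background in either cow. The other higher gene, S100A9 (1.34), read 83530 and 210342 in the light-muzzle and the dark-muzzle animal, far above the 5.84 and 62.8 of MPO. From which cells the S100A9 signal came was not tested. The probes of MMP9 disagreed, with a ratio of -1.02 for the one measured in both cows, at least 3.99-fold lower expression by another and at least 6.08-fold higher expression by the last.

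The pieces of muzzle also differed in other tissues. All 14 skeletal muscle genes with a ratio were higher in the dark-muzzle animal by at least 2-fold, with a median of 3.03. Keratinocyte genes, which mark the epidermis of the muzzle, were well above background in both cows, and 3 of 9 were higher in the dark-muzzle animal by at least 2-fold, led by KRT10 (1.57). The median of this list was 0.62, and KRT5 (-0.52) and KRT14 (-0.41) were lower by less than 2-fold. Myoepithelial genes, which mark the contractile cells around gland acini but also other smooth muscle, had a median of -0.10, with 0 of 10 at least 2-fold lower and 2 at least 2-fold higher. Those 2 were ACTG2, with probes at 2.32 and -0.25, and SMTN, whose 4 probes ranged from -0.18 to 2.48. The shares among all genes with a symbol were 6.47% lower and 9.86% higher. The part of these tissues in the ratios of the 10 genes was not tested.

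Position in the genome was examined through the gene order of the ARS-UCD2.0 assembly, whose coordinates are not those of the array design. Up to 2 genes with a ratio were taken on each side of each of the 10 genes, at most 10 protein-coding genes away. Of 38 such neighbours, 8 were at least 2-fold lower, 6 were at least 2-fold higher and the median was 0.074. Among all genes with a symbol, 6.47% were at least 2-fold lower and 9.86% at least 2-fold higher, so both counts were above these shares. The lower neighbours include BPIFB1, BPIFA2C, CRISP3 and FAP, relatives of the 10 genes that are already given above. The higher ones include PRSS2, LOC781349, MPO and GCG, each known only by a bound. An effect of position was not tested. PRSS2, a trypsinogen gene 10 protein-coding genes away from PIP, did not clear the background in the light-muzzle animal. It was higher in the dark-muzzle animal by at least 6.06 on the log2 scale. Next to DPP4, SLC4A10, a bicarbonate transporter, had a ratio of -5.20. CRISP3 lies next to CRISP2, and BPIFB1 and BPIFA2B lie near BPIFA1. For CA6, the next gene was ENO1 (-0.13), an enzyme of glycolysis. For LTF it was CCRL2 (-0.19), a chemokine-binding receptor.

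Outside all lists, the genes with the ratio nearest to that of PIP, measured as the absolute difference of log2 ratios over the 2 arrays, were SPP1 (-4.70), the secreted phosphoprotein osteopontin, and MAMDC4 (-4.60). Nearest to MSMB were FCGR2B (-6.64), an Fc receptor, and SLC4A10 (-5.20), and nearest to BPIFA1 were IDH2 (1.29), an enzyme of mitochondria, and MVK (1.28), an enzyme of sterol synthesis. Each likeness rests on a single difference between 2 animals.

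**Figure D4:**
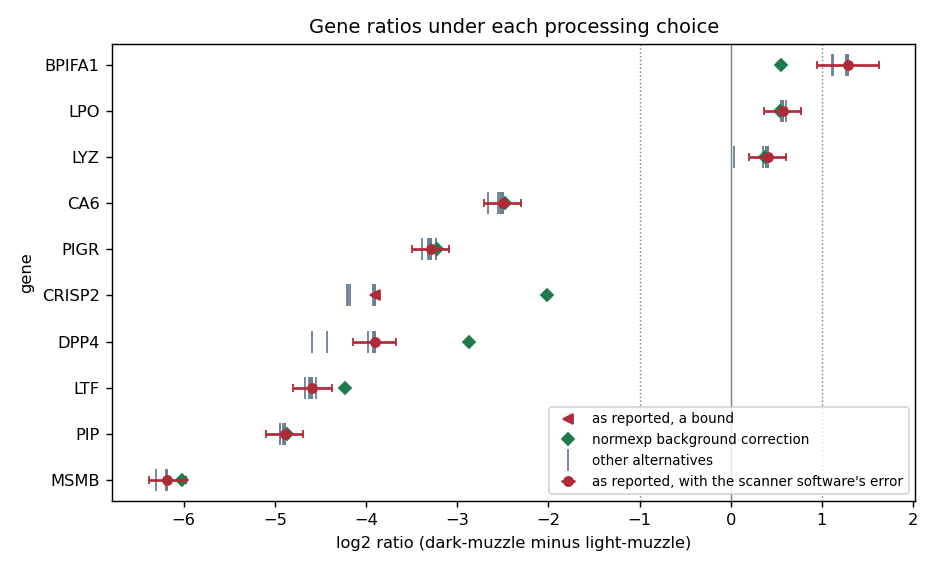
Log2 ratio (x axis) of each of the 10 genes (y axis) as reported (red, with the scanner software's error, or an arrowhead for the bound of CRISP2), under normexp background correction (green diamonds) and under the other processing choices (grey ticks); dotted lines mark 2-fold. The 7 lower genes stayed beyond 2-fold under each choice shown, and BPIFA1 went from 1.29 to 0.55 under normexp.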

How the data were processed

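RNA from 1 light-muzzle and 1 dark-muzzle cow was read on 1-colour arrays, and groups were taken from the titles. The authors deposited Feature Extraction 10.7.3.1 output per array, in which the processed signal and its error are intensity values after background subtraction and detrending. The authors also deposited a log2 table made in GeneSpring. Its medians were -2.47 and -2.45, and 99.97% of its values were within 0.01 of the levels computed here, so its scale, centring and direction are known. It served as an alternative only.

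Control spots and outlier spots (13 per array) were left out, spots of a probe were averaged, and the 75th percentile of the noncontrol spots (intensity 1144 and 1137) was subtracted after log2. A probe well above background in only 1 cow was given a bound, and in neither cow no ratio. Every bound, and each fold given with "at least" for such a probe, is approximate. A probe can read above the lowest signal well above background without being well above it itself. A gene's ratio is the mean over its probes measured in both cows, or else its largest bound. Of 43639 probes, 20587 took a symbol through their accession from the RefSeq table of ARS-UCD2.0. Other probes were not used for named genes, and no sequence was used here. The array design names the build HGSC Btau_3.1, and no coordinates are given.

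The members and lists were chosen with earlier results of these data known. Named were all members, up to 4 genes per list with the ratio furthest from 0, family members, and the nearest ratios to PIP, MSMB and BPIFA1. KRT19, KRT5, KRT14, CST6, AMY2B, STATH, ALB, KLK1, SDC1, CD38, CD79A, BPIFA2B, BPIFA2C, the genome neighbours and genes named as not analysed or not above background were named after their values were seen. A list of receptors for secretory stimuli is not reported here. Counting was tested on a changed copy of the light-muzzle array, on which 100 of 100 raised and 100 of 100 lowered genes (4-fold) were recovered and 0 of 8438 others passed. With 1 array per group no p-value was computed. Precision is limited by how few arrays there were. Alternatives were quantile and loess (span 0.3) normalization, the 50th percentile, no shift, normexp (offset 50, on median pixel signals in place of the planned mean, since the scanner output analysed here carries the median), filters on dim and outlier spots, other summaries of probes, the deposited table and thresholds of 1.5-fold and 3-fold. Software was Python 3.11.15, numpy 2.4.6, pandas 2.3.3, matplotlib 3.10.9, R 4.3.3 and limma 3.58.1.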

Additional observations from a re-analysis of the deposited data

How the results depend on the processing

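None of the 10 genes changed direction under the 11 alternatives that give gene ratios, and 7 genes were at least 2-fold lower under each alternative except the filter to probes measured in both cows, which leaves out CRISP2 and left 6. Normexp background correction moved the most values, and the cause was not tested. Under it the median of the 10 genes was -2.68, no gene (0) was at least 2-fold higher, and 1563 probes were lower and 2132 higher in place of 2626 and 3575. The median was -3.29 with probes measured in both cows only. At 3-fold, 0 of the 10 genes were higher, with 1169 probes lower and 1620 higher, and at 1.5-fold 5542 probes were lower and 7226 higher. Without a filter on dim probes 6018 probes were higher. LYZ was 0.032 by its brightest probe alone. The limits of the measurement are signals near background, which set those of CRISP2 and BPIFA1, and the single cow per group. No paired analysis was possible because each group was 1 cow, and no replicate could be left out.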

Other observations

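Genes for the release of secretion were mostly within 2-fold, as were all but 6.47% (lower) and 9.86% (higher) of the genes with a symbol. Of 10 genes of regulated exocytosis, 2 were lower in the dark-muzzle animal by at least 2-fold, namely RAB26 (-3.62), a small GTPase of secretory granules, and CADPS2 (-2.17), which primes granules for release. RAB27B (0.83) and RAB11A (0.83) were the highest and the median was -0.074.

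Genes of ciliated airway epithelium, in which BPIFA1 is also found, had a ratio for 4 of 13 listed, of which 2 were measured in both cows and 2 are bounds. TPPP3 had a log2 ratio of 1.35 over 3 probes, DNAI1 was higher in the dark-muzzle animal by at least 4.27-fold, TEKT2 had a ratio of 0.099, and for TEKT1 only a bound of 0.28 was available. DNAH9, SPAG6 and RSPH1 were not well above background in either cow. The TPPP3 probes read between 1493 and 11720 in the light-muzzle animal. By contrast, TEKT2 read 72.0 and 76.7 and DNAI1 17.1 and 88.4 in the light-muzzle and the dark-muzzle animal. Whether ciliated cells were present in the tissue was not tested.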
